A study of Mus musculus with 84 samples.

Results

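The genes that encode the proteins of the cytosolic ribosome were examined in the RNA-seq of mouse colon. Members were the rows of the count table whose symbol was Rpl or Rps followed by a number with at most one of the letters a, x or l, together with Rplp0, Rplp1, Rplp2 and Rpsa, which gave 82 of 25494 rows. Of these, 50 carry names of the large subunit and 32 names of the small subunit. RNA came from 12 libraries of male C57BL/6 mice that had been raised germ-free, and the design asked how the diet of the recipient and the diet of the donor of its bacteria combine. HFDHFB recipients were fed a high fat diet (HFD, 60% fat) and received bacteria of HFD-fed donors, and HFDLFB recipients were fed the HFD and received bacteria of donors on a low fat diet (LFD, 10% fat). LFDHFB and LFDLFB recipients were fed the LFD and received bacteria of HFD-fed and LFD-fed donors, respectively. All recipients were bought at 5 weeks of age and were given fecal material of male donors by gavage 4 times a week for 5 weeks. Each group had 3 libraries. Nothing in the labels says that the libraries of a group came from separate animals, so p-values measure only the spread between these libraries.

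A ribosome has a small subunit that reads the mRNA and a large subunit that joins amino acids, and each holds one copy of most of its proteins. The protein genes are scattered over the genome, yet cells make the proteins in matched amounts, and proteins in excess are degraded. The mRNAs begin with a tract of pyrimidines (the terminal oligopyrimidine, or TOP, tract), through which mTORC1 and the RNA-binding protein LARP1 control their translation. In the colon the demand for ribosomes is high in the crypt, where the epithelium is renewed.

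The pyrimidine tract is shown because it is the sequence that these mRNAs are known for and the rule did not use it. RefSeq promoter entries (GRCm38.p6) were found for 61 of the 82 members, with 73 annotated starts. In the following windows of 10 bases before and 20 bases from the annotated start, written 5′ to 3′, capitals mark a match to C followed by at least 4 pyrimidines, searched within 10 bases of the start. In the first 9 the match begins at the annotated base, although the base before it is a pyrimidine too. The last 3 belong to members described below, where the match nearest to the start begins later or lies beyond 10 bases and is left in lower case. Rpl35a and Rps27l also have annotated starts with no match within 10 bases, which are not shown.
Rpl38 (chr11:114668570-114668599, plus strand): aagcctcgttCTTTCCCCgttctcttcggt
Rps6 (chr4:86857348-86857377, minus strand): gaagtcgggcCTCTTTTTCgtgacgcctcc
Rpl35 (chr2:39005112-39005141, minus strand): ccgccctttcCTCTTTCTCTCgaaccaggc
Rpl28 (chr7:4792955-4792984, plus strand): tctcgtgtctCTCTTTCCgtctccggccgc
Rpl35a (chr16:33056472-33056501, plus strand): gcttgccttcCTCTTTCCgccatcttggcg
Rpl15 (chr14:18270967-18270996, minus strand): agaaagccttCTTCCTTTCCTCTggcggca
Rps10 (chr17:27635225-27635254, minus strand): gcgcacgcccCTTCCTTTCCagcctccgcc
Rps18 (chr17:33955646-33955675, minus strand): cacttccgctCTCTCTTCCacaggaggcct
Rplp2 (chr7:141447641-141447670, plus strand): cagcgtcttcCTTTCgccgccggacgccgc
Rps26 (chr10:128626487-128626516, minus strand): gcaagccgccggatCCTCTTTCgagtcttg
Rps27l (chr9:66946076-66946105, plus strand): cctccccgccgCCTCTatcccggaagttgc
Rplp0 (chr5:115559457-115559486, plus strand): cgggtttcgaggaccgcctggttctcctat

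A match to C followed by 4 bases that are each C or T began at the annotated start of 14 of the 61 members with an entry (23%), against 3.01% of all 27025 genes with an entry. Within 10 bases of the start it was found in 39 members (63.9%) and 34.4% of all genes. CTTTCC or CTTTTCC began within 10 bases of the start in 13 members (21.3%) against 1.61% of genes. Of the motifs searched on both strands of the 300 bases from 250 before the start, CCGGAAG, the core bound by ETS factors, was in 25 members (41%) and 9.93% of genes, and GGGCGG, the box bound by Sp1, was in 36 members (59%) and 38.2% of genes. TATAA, searched on the strand of the gene only, stood 20 to 40 bases upstream in 4 members (6.56%) and 4.22% of genes. These matches are descriptions of letters in a window and depend on where RefSeq places the start. Rplp1, Rps20 and 19 other members had no entry.

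In the colon nearly all members had acetylated histones at their starts. H3K27ac marks active promoters and enhancers, and H3K4me1 marks enhancers and the flanks of active promoters. Peak lists of colon epithelium were compared with the mm9 starts of the members, over 23 H3K27ac libraries (12 of mice of both sexes kept on the HFD or the LFD with their own bacteria and 11 of recipients) and 12 H3K4me1 libraries of the former mice. An H3K27ac peak lay within 1000 bp of the start of 78 or 79 members (95.1% to 96.3%) in each library, against 71.8% to 75.9% of the other genes that passed the low-count filter of the RNA-seq. Of the 78 members that passed the same filter, 98.7% to 100% had it. The same 78 of the 82 members had it in every library, and Rpl3l, Rpl10l and Rpl39l had it in no library. In recipients, whose libraries match the groups of the RNA-seq, the median width of the H3K27ac peak at the members was 3200 and 3700 bp in the 2 HFDHFB libraries and 3600, 3400 and 4000 bp in HFDLFB. It was 3000, 3400 and 3200 bp in LFDHFB and 3300, 3400 and 2600 bp in LFDLFB, so the groups overlapped. The deposited lists hold no height, so the amount of acetylation could not be compared.

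H3K4me1 flanked the starts of the members. A peak lay within 1000 bp in 74 to 77 members (90.2% to 93.9%) and in 80.9% to 84.4% of the other genes tested. It covered the start itself in only 3 to 16 members (3.66% to 19.5%), while it covered the start of 35.9% to 41.2% of the other genes. Within 250 bp the values were 23.2% to 39% and 49.9% to 55.9%. Over the members that passed the filter the shares were 93.6% to 97.4% within 1000 bp, 24.4% to 41% within 250 bp and 3.85% to 20.5% at the start. In each of the 12 libraries the share of members was thus above that of other genes at 1000 bp and below it at 250 bp and at the start. HNF4α, a transcription factor of the intestinal epithelium, was profiled in males kept on these diets with their own bacteria, not in recipients. It had a peak within 1000 bp of 14 and 17 members in the 2 HFD libraries and of 20 and 26 in the 2 LFD libraries. Over the 78 members that passed the filter these were 17.9%, 21.8%, 25.6% and 33.3%, against 19.4%, 21.5%, 25.9% and 22.1% of the other genes tested. Within 250 bp the shares were 15.4%, 20.5%, 21.8% and 30.8% of members against 14.4%, 16.7%, 19.8% and 17% of other genes. At the start itself they were 10.3%, 15.4%, 15.4% and 24.4% against 8.46%, 10.5%, 11.7% and 10.3%. The members were thus above the other genes in all 4 libraries in the narrower windows and in 2 of 4 within 1000 bp, and LFD library 2 stood farthest apart. Rpl15 and Rps27l were among the members with an HNF4α peak in all 4 libraries, and 37 members had none in any.

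**Figure D1:**
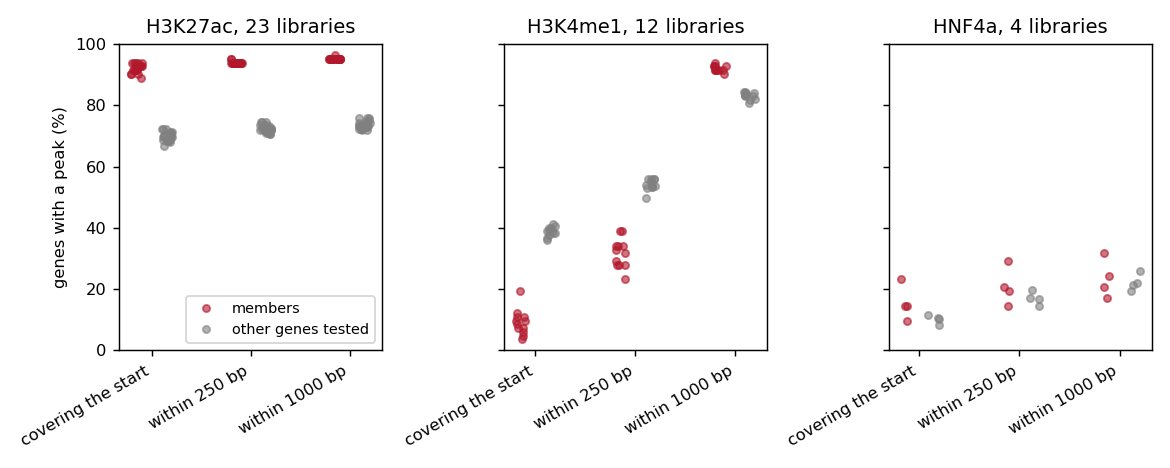
Share of genes (%) with a peak that covers the annotated start, or lies within 250 or 1000 bp of it, for H3K27ac, H3K4me1 and HNF4a; each point is 1 library, in red for the 82 members and in grey for the other genes tested. For H3K4me1 the red points lie at 3.66% to 19.5% at the start, below the grey ones, and at 90.2% to 93.9% within 1000 bp, above them.

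Most members were well counted, as 73 of the 82 had a mean of 4007 counts or more. Libraries held 39904191 to 48026846 counted reads, and members took 2.83% to 5.19% of them. Levels are given as CPM, the count relative to the library total scaled by the trimmed mean of M-values (TMM), and genes were compared with each other only per kb of 1 annotated transcript, which could be done for 79 members. The median of the members that passed the filter was 591 CPM per kb. Of the 79 members, Rplp1, a P protein of the stalk that recruits elongation factors, was highest with 1949 CPM per kb. It was followed by Rps14 with 1795 and Rps15 with 1299, both proteins of the small subunit. Rpl41, with a mean of 1063 CPM, had no transcript length and could not be placed in this order. The other stalk genes, Rplp0 and Rplp2, stood at 1066 and 815 CPM per kb, and Rpsa, a small subunit protein also known as the laminin receptor precursor, at 423. The transcripts of Rpl24 and Rps20 taken from the annotation were long, at 4999 and 3706 bases, which lowers their values of 43.5 and 146 CPM per kb.

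Paralogs known from other tissues were at or near 0. Rpl10l, the copy of Rpl10 known from the testis, had no count in any of the 12 libraries. Rpl3l, the copy of Rpl3 known from striated muscle, had 0 to 6 counts per library, and Rpl39l, the copy of Rpl39 known from the testis, had 0 to 10. These were 3 of the 4 members that did not pass the filter, and the same genes that lacked an H3K27ac peak. Rps27l, the copy of Rps27 known as a p53 target, had 4874 to 8079 counts, with 139 CPM on average.

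The fourth row below the filter was Rpl26, with 0 to 4 counts per library, although an H3K27ac peak lay within 1000 bp of its start in 23 of 23 libraries. Its locus on mm9, chr11:68715068-68718036, coincides over 99.2% of its length with another row on the same strand that was at a count of 0 in the mean. Rpl30, Rpl34 and Rps27 were in the same position, each sharing over 90% of its locus with another same-strand row, and had means of 99.9, 98 and 51.7 counts. H3K27ac peaks stood within 1000 bp of their starts in all 23 libraries, too. Reads that fall on more than 1 gene are dropped by some counting settings, which are not given in the sources used here, and whether that set these 4 rows was not tested. Rpl32l, at 34.1 counts, lies inside Map7 on the same strand, and Rps4l, at 730 counts, inside Tmtc1 on the opposite strand. The other 73 members that passed the filter had means of 4007 counts or more. The exact sequence of most members also occurs elsewhere in the genome, as retrocopies are frequent in this family. At the median, 65.1% of the 50-base windows of a member's transcript had an exact second place in mm9, so counts can be shared with copies.

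**Figure D2:**
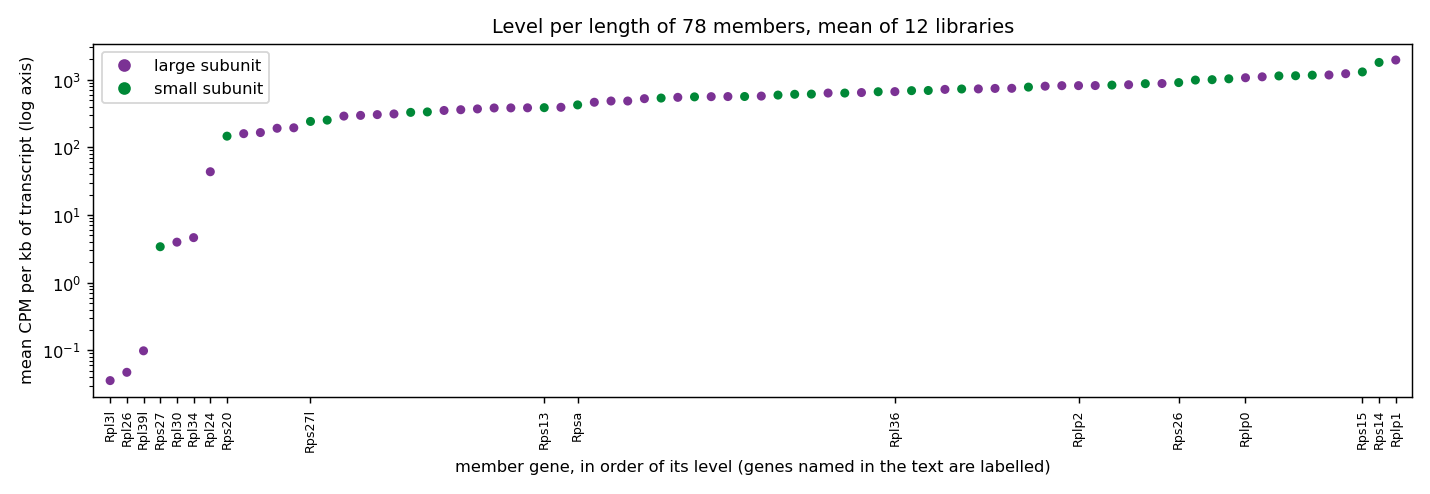
Mean CPM per kb of transcript over 12 libraries (log axis) for the 78 members with a transcript length and at least 1 count, in order, with purple points for the large and green points for the small subunit and labels for genes named in the text. Rplp1 ends the order at 1949, and Rpl3l, Rpl26, Rpl39l, Rps27, Rpl30 and Rpl34 form the low end, separated from the rest.

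Across libraries the members moved as a block. The share of counted reads on members was 3.47%, 5.19% and 4.61% in HFDHFB, 3.64%, 3.07% and 3.56% in HFDLFB, 3.67%, 3.06% and 2.83% in LFDHFB, and 3.99%, 4.18% and 3.17% in LFDLFB. The mean was 4.42% ± 0.877 (SD, n = 3) in HFDHFB, 3.42% ± 0.308 (SD, n = 3) in HFDLFB, 3.19% ± 0.434 (SD, n = 3) in LFDHFB and 3.78% ± 0.533 (SD, n = 3) in LFDLFB. Replicates 2 and 3 of HFDHFB were above all other libraries, and replicate 1 of HFDHFB was within the range of HFDLFB. The ratio of reads on large to reads on small subunit genes stayed between 1.32 and 1.41.

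For the 73 members with a mean count of at least 1000, each gene was centred on its own mean log2 CPM. The median deviation of a library was −0.06, 0.43 and 0.34 in HFDHFB, −0.11, −0.29 and 0.01 in HFDLFB, 0.03, −0.15 and −0.49 in LFDHFB, and 0.19, 0.16 and −0.11 in LFDLFB. One component held 88.4% of the variance of these members over the libraries and 85.8% of that within groups. For the 6789 other genes of the same count limit the first component held 45.1%, and 56% within groups. The SD of a member over the 12 libraries had a median of 0.279 on the log2 scale, and of 0.0928 once the median deviation of each library was subtracted. Because members move together, 78 tests of them are far from independent, and a count of members past a threshold says little more than the library medians. The pooled SD of the library medians within groups was 0.218.

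**Figure D3:**
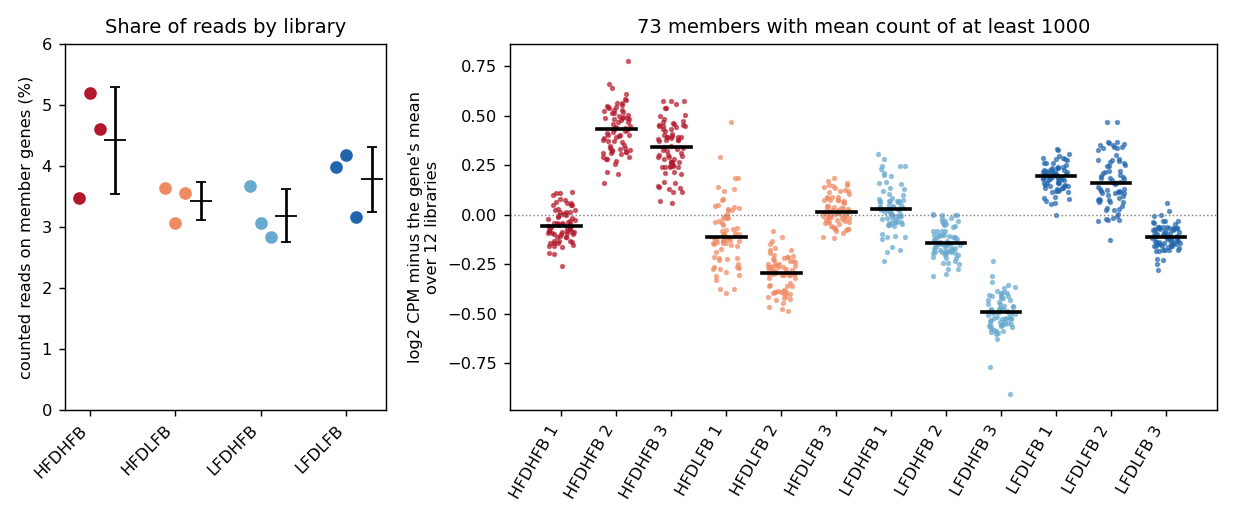
Left, share of counted reads (%) on the 82 members in each library, with the mean and SD of the group in black. Right, log2 CPM minus the gene's own mean over the 12 libraries for 73 members (points) with the median of each library (bar). HFDHFB 2 and 3 lie highest, with medians of 0.43 and 0.34, and LFDHFB 3 lies lowest, at −0.49.

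Most members had a positive log2 fold change for bacteria of HFD-fed against LFD-fed donors under the HFD and a negative one under the LFD, but no gene passed the test. The low-count filter left 15893 genes, among them 78 members, and edgeR's quasi-likelihood test was fitted to all 4 groups at once with Benjamini-Hochberg adjustment over the 15893 genes. In HFDHFB against HFDLFB, 77 of 78 members had a log2 fold change above 0 (all genes tested, 49.7%). The median was 0.36, a fold of 1.29, with a range from −0.14 to 0.63, and the median of all genes tested was −0.00. None of the members passed an adjusted p of 0.05 (all genes tested, 0%), whereas 21 were higher at an unadjusted p under 0.05 (4.85%). Every HFDHFB library was above every HFDLFB library in 8 members (8.11%), a share of 10.3% that is near the background.

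In LFDHFB against LFDLFB, 2 of 78 members were above 0 (53.5%), and the median was −0.27, a fold of 0.829, with a range from −0.47 to 0.27. The median of all genes tested was 0.02. None passed the adjusted threshold (0%) and 3 were lower at an unadjusted p under 0.05 (1.72%). Every LFDHFB library was below every LFDLFB library in 7 members (5.57%), a share of 8.97%.

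The diet by bacteria interaction is the difference between these effects. It was above 0 in 76 of 78 members (45.7%), with a median of 0.64 that corresponds to a 1.56-fold difference between the effects, and a range from −0.33 to 0.97. The median of all genes tested was −0.05. With edgeR none passed an adjusted p of 0.05 (0%), and 52 members, or 66.7%, were higher at an unadjusted p under 0.05 (6.34%). The median was 0.61 for the 46 large subunit members tested and 0.67 for the 32 of the small subunit.

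Diets were also compared under each kind of bacteria. In HFDHFB against LFDHFB 76 members were above 0 (45.3%), the median was 0.44 and 45 were higher at an unadjusted p under 0.05 (5.25%). Every HFDHFB library was above every LFDHFB library in 26 members (7.47%), or 33.3%, but none passed the adjusted threshold (0%). Under bacteria of LFD-fed donors 4 members were above 0 in HFDLFB against LFDLFB (50.7%), the median was −0.19, and none was lower at an adjusted (0%) or an unadjusted p under 0.05 (1.76%). Every HFDLFB library was below every LFDLFB library in 3 members (6.62%). Without LFDLFB replicate 1 this comparison had 16 members above 0 and a median of −0.12, and without HFDLFB replicate 2 it had 10 and −0.12. These comparisons share libraries with the former ones. DESeq2 called 1 member, Rplp1, in HFDHFB against LFDHFB (log2 fold change 0.76, standard error 0.19, adjusted p = 0.0187), and no member in the other 4 comparisons, and limma-voom and limma-trend called none in any.

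**Figure D4:**
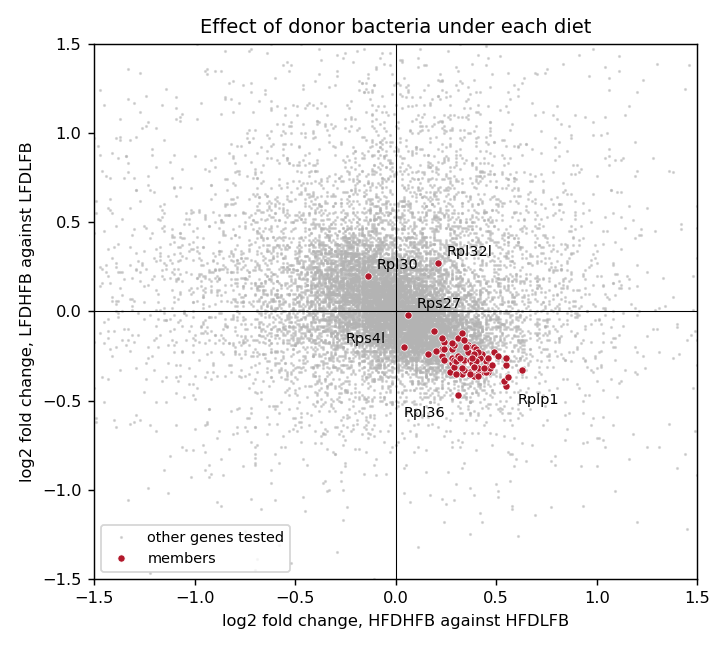
Log2 fold change of HFDHFB against HFDLFB (horizontal) and of LFDHFB against LFDLFB (vertical) for the 78 members tested (red) and 15301 other genes (grey); 514 other genes lie outside the axes. The axes share no library, and the members form a cluster at right below the centre, around 0.36 and −0.27, with Rpl30, Rpl32l and Rps27 outside it.

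Among the stalk genes, Rplp1 (mm9 chr9:61761090-61762317, minus strand) had the smallest p of all members in the interaction. Its CPM was 947, 1465 and 1396 in HFDHFB, 894, 768 and 936 in HFDLFB, 797, 762 and 654 in LFDHFB, and 1104, 981 and 873 in LFDLFB. Every HFDHFB library was thus above every HFDLFB library and every LFDHFB library below every LFDLFB library. The log2 fold change was 0.55 with a standard error of 0.19 under the HFD and −0.42 with a standard error of 0.19 under the LFD, and the interaction was 0.97 with a standard error of 0.26 (edgeR, adjusted p = 0.386). Rplp2, which pairs with Rplp1 in the stalk, had a mean of 438 ± 141 CPM (SD, n = 3) in HFDHFB, 300 ± 42.5 (SD, n = 3) in HFDLFB, 275 ± 37.2 (SD, n = 3) in LFDHFB and 359 ± 35.8 (SD, n = 3) in LFDLFB. Replicate 1 of HFDHFB, at 290 CPM, lay inside the range of HFDLFB, and the interaction was 0.93 (edgeR, adjusted p = 0.386). Rplp0, which anchors them to the large subunit, had a mean of 1738 ± 385 CPM (SD, n = 3) in HFDHFB, 1266 ± 165 (SD, n = 3) in HFDLFB, 1243 ± 244 (SD, n = 3) in LFDHFB and 1543 ± 220 (SD, n = 3) in LFDLFB, with an interaction of 0.77 (adjusted p = 0.414).

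Of the small subunit, Rps26 (mm9 chr10:128061585-128063562, minus strand), a protein at the exit of the mRNA channel, had the second smallest p. It stood at 398, 574 and 538 CPM in HFDHFB, 304, 309 and 412 in HFDLFB, 383, 345 and 282 in LFDHFB, and 489, 441 and 376 in LFDLFB. The groups overlapped by 1 library under each diet, and the interaction was 0.93 with a standard error of 0.27 (edgeR, adjusted p = 0.386). Rps27l (mm9 chr9:66793883-66797329, plus strand) stood at 148, 153 and 168 CPM in HFDHFB and at 114, 127 and 131 in HFDLFB, with no overlap. In LFDHFB it was 141, 119 and 105 and in LFDLFB 137, 177 and 143 CPM, where the groups overlapped. Its log2 fold change was 0.33 under the HFD and −0.32 under the LFD, and −0.29 in HFDLFB against LFDLFB, where it had the smallest p of the members (edgeR, adjusted p = 0.881).

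Rps20, a protein of the head of the small subunit, followed Rplp1 in HFDHFB against LFDHFB, with 530, 767 and 751 CPM against 491, 468 and 377 and a log2 fold change of 0.62 with a standard error of 0.17 (adjusted p = 0.367). Rps13 was second in HFDLFB against LFDLFB, with 204, 164 and 207 CPM against 241, 303 and 219 (log2 fold change −0.41, adjusted p = 0.881). Rpsa had a mean of 932 ± 205 CPM (SD, n = 3) in HFDHFB, 713 ± 66.1 (SD, n = 3) in HFDLFB, 672 ± 135 (SD, n = 3) in LFDHFB and 831 ± 123 (SD, n = 3) in LFDLFB, close to the pattern of the whole family (interaction 0.69, adjusted p = 0.429). In the large subunit, Rpl36 (mm9 chr17:56752818-56753669, plus strand) had the smallest p in LFDHFB against LFDLFB, with 233, 226 and 183 against 311, 319 and 262 CPM and a log2 fold change of −0.47 (edgeR, adjusted p = 0.975).

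**Figure D5:**
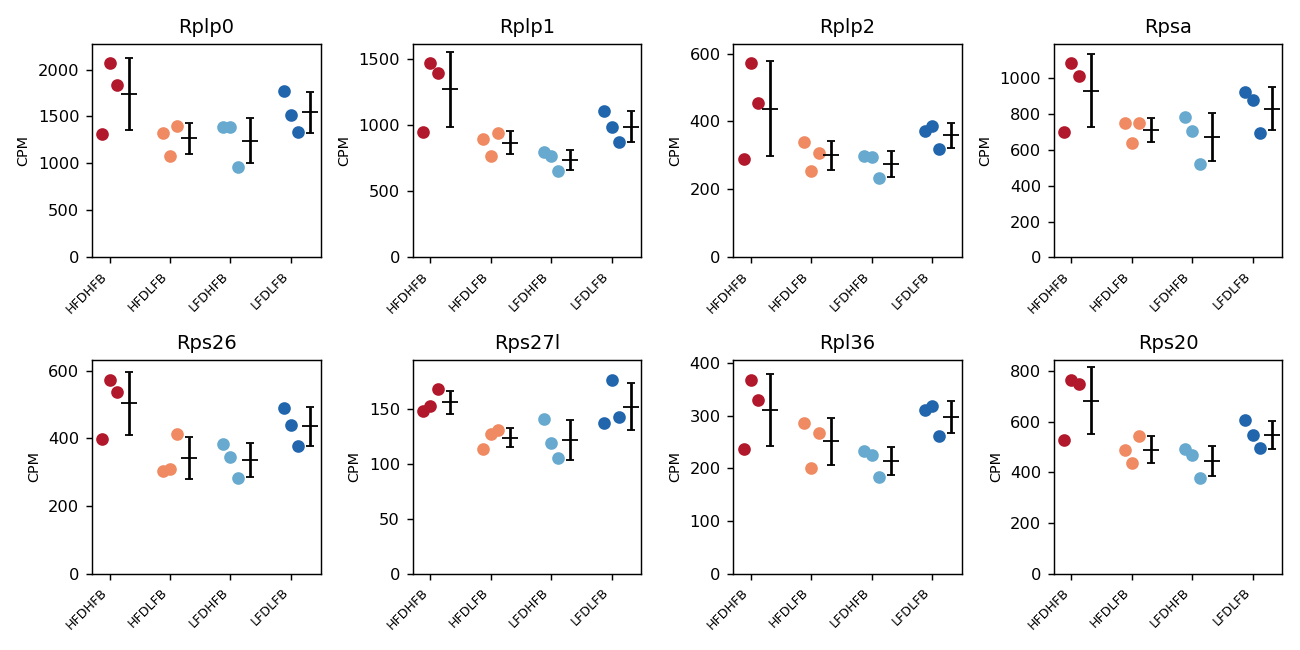
CPM of 8 members in each library (colored points), with the mean and SD of each group of 3 in black. For Rplp1 all 3 HFDHFB points lie above those of HFDLFB and all 3 LFDHFB points below those of LFDLFB, and for Rps26 the points of these groups overlap.

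The members farthest from the median of the family over the 5 comparisons were Rpl30 and Rpl32l, both with few counts. Rpl30 had 1.91, 2.8 and 2.02 CPM in HFDHFB and 2.21, 2.61 and 2.57 in HFDLFB, and its interaction was −0.33 with a standard error of 0.34 (adjusted p = 0.744). Rpl32l had an interaction of −0.06 with a standard error of 0.49 (adjusted p = 0.978). Rps27, with 30 to 76 counts per library, came next and was at 0.39 in HFDLFB against LFDLFB (standard error 0.33, adjusted p = 0.897). These rows are among those that share or lie inside another gene's locus, as given above. Members with a pyrimidine match at the start, within 10 bases or with neither were close in their central values, as the interaction had medians of 0.66 over 14, 0.64 over 22 and 0.65 over 21 members tested.

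Other genes of the translation machinery were taken from lists, and none of them passed the adjusted threshold with edgeR in any comparison. Of 7 ribosomal proteins outside the symbol rule, which include Rps3a1 and Rack1, all had an interaction above 0, with a median of 0.58, and 4 were higher at an unadjusted p under 0.05, a threshold that 6.34% of all genes tested passed in this direction. The proteins of the mitochondrial ribosome, which are encoded in the nucleus and imported, were above 0 in 77 of 77 genes, with a median of 0.45, and 52 were higher at an unadjusted p under 0.05. Under the HFD 76 of 77 were above 0 (median 0.25), and under the LFD 2 of 77 (median −0.19). Ribosome biogenesis factors had an interaction above 0 in 32 of 40 genes (median 0.26, 8 higher at an unadjusted p under 0.05), and translation factors and other TOP mRNAs in 14 of 16 (median 0.31, 3 higher). Eef1b2, an exchange factor of elongation, was at 0.62, while Eef1a1, Pabpc1 and Npm1 were at 0.12, −0.01 and 0.12. Host transcripts of snoRNAs were above 0 in 7 of 7 (median 0.47, 3 higher). Of 29 genes of mTORC1, MYC and LARP1 control, 14 were above 0, the median was −0.07 and 2 were higher, a share near that of all genes. For 10 p53 targets the median was −0.21, with 1 higher and 2 lower, and for 10 nuclear-retained RNAs and immediate early genes it was 0.34, with 2 higher. RP pseudogene rows, of which 5 of 9 were tested, were above 0 in 5 of 5 (median 0.69, all genes tested 45.7% above 0). As copies they can share counts with the members, so they are not a separate observation.

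Gene length moved with these values. Among other genes tested, the median interaction was 0.34 for 635 genes with under 1000 bases of exon, 0.18 for 2376 genes of 1000 to 2000 bases, 0.01 for 5235 genes of 2000 to 4000 bases and −0.19 for 6098 longer genes. The medians of the shortest and the longest genes were 0.19 and −0.08 in HFDHFB against HFDLFB, −0.16 and 0.10 in LFDHFB against LFDLFB, 0.31 and −0.12 in HFDHFB against LFDHFB, and −0.05 and 0.06 in HFDLFB against LFDLFB. With a smooth length trend removed from each library, the member median of the interaction was 0.46 and 25 of the 75 members with a length were at an unadjusted p under 0.05 (all genes, 8.07%). In HFDHFB against LFDHFB the member median was then 0.26 in place of 0.44, and the log2 fold change of Rplp1 0.42 in place of 0.78. The trend was fitted over genes that included the members, so it can hold part of their own shift. The part of fragment length or RNA quality in this was not tested.

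Markers of other cells of the colon were present in the scraped tissue, too, and in such samples fewer cells of a type and less RNA per cell cannot be told apart. The 8 epithelial markers, none of which was at 0 in any library, summed to 12951 to 15166 CPM in HFDHFB, 10561 to 13721 in HFDLFB, 9964 to 15656 in LFDHFB and 14047 to 15186 in LFDLFB. The lowest sums were in LFDHFB 3 and HFDLFB 2, which were also the libraries with the lowest member medians. At the high end the orders differed. The highest sum, 15656 CPM, was in LFDHFB 2, with a member median of −0.15. HFDHFB 2 and 3, with the highest member medians, summed to 12951 and 13393 CPM. The 8 adipocyte markers, none at 0, summed to 171 to 563, 486 to 2970, 178 to 1097 and 257 to 392 CPM in the same order, and the 8 mesothelial markers, of which Krt5 was at 0 in at least 1 library, to 49.7 to 102, 97.5 to 505, 79.7 to 131 and 57.1 to 208. HFDLFB 1 and 2 had the highest sums of both lists. Proliferation markers summed to 135 to 240, 51.5 to 160, 132 to 190 and 124 to 159 CPM, and smooth muscle markers to 1773 to 6165, 987 to 4358, 1910 to 4597 and 1977 to 3801. The interaction had medians of 0.39 for epithelial, −0.15 for absorptive colonocyte, 0.45 for goblet, 0.67 for crypt stem and proliferation, 0.59 for smooth muscle, −4.38 for adipocyte and −2.29 for mesothelial markers. It was −0.72 for leukocyte, 0.21 for B and plasma cell, −0.06 for fibroblast, −0.47 for endothelial and −0.55 for enteric neuron and glia markers, and no marker passed the adjusted threshold with edgeR. At an unadjusted p under 0.05 in the interaction (all genes in either direction, 11.3%), 7 of 7 mesothelial markers tested and 6 of 8 adipocyte markers were lower. In the same comparison 3 of 8 goblet markers and 1 of 8 crypt stem and proliferation markers were higher, and 1 leukocyte and 1 fibroblast marker were lower. Without HFDLFB replicate 1 the member median of the interaction was 0.62, without HFDLFB replicate 2 it was 0.59 and without LFDHFB replicate 3 it was 0.50. Leaving out HFDLFB replicate 1 or 2 kept the other, so these values cannot show the median without both. The part of cell makeup in the member levels was not tested.

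The medians of the members kept their sign whichever library was left out, but the number of members at an unadjusted p under 0.05 in either direction rested on few libraries. In HFDHFB against HFDLFB, where 21 members and 9.07% of all genes passed, no member passed without HFDHFB replicate 2 (all genes, 4.76%), 1 without HFDHFB replicate 3 (6.35%) and 2 without HFDLFB replicate 2 (5.66%), which are shares of members below those of all genes. The number was 9 without HFDLFB replicate 1 (7.39%) and 13 without LFDHFB replicate 2 (8.19%), and was 51 without HFDHFB replicate 1 (13.1%) and 37 without LFDHFB replicate 3 (11.4%). In LFDHFB against LFDLFB, where 3 members and 3.72% of genes passed, it was 0 without LFDHFB replicate 3 (1.98%) or LFDLFB replicate 2 (3.86%), 1 without LFDHFB replicate 2 (4.73%) or LFDLFB replicate 1 (1.95%), 6 without HFDHFB replicate 1 (4.52%), 7 without LFDLFB replicate 3 (3%) and 13 without LFDHFB replicate 1 (6.68%). In the interaction, where 52 members and 11.3% of genes passed, it was 18 without HFDHFB replicate 2 (7.43%) or LFDLFB replicate 1 (8.14%), 23 without HFDHFB replicate 3 (8.01%), 24 without HFDLFB replicate 2 (8.09%), 26 without LFDHFB replicate 3 (8.65%), and 30 without LFDHFB replicate 2 (10.5%) or LFDLFB replicate 2 (7.94%). It was 40 without HFDLFB replicate 1 (10.5%), 52 without HFDLFB replicate 3 (13.3%) and 55 without LFDLFB replicate 3 (10.7%). Without HFDHFB replicate 1 it was 61 (15.3%), and without LFDHFB replicate 1 it was 64 (12.5%). In HFDHFB against LFDHFB 45 members and 7.46% of genes passed. The number was 12 without LFDHFB replicate 3 (8.77%) and 13 without HFDHFB replicate 2 (4.08%). It was 14 without HFDHFB replicate 3 (4.28%) and 25 without LFDHFB replicate 2 (5.77%). Without HFDHFB replicate 1 it was 59 (13.2%), and without LFDHFB replicate 1 it was 58 (8.53%). With each other library left out it was 41 to 48 (6.31% to 7.69%).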

How the data were processed

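RNA-seq and ChIP-seq files of colon were used. Per the labels and the methods, the authors aligned RNA-seq reads to mm9 with STAR 2.5, counted them per gene with featureCounts 1.5.0-p1 and deposited raw counts, not normalized. ChIP-seq reads were aligned with Bowtie 0.12.8 and freed of duplicates with Picard 1.110, and the authors deposited peak positions (other values: start and end in bp) per library, called by SICER with windows of 200 bp or by HOMER, with no height. Read depth of these libraries is unknown.

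The counts of 12 libraries (39904191 to 48026846 reads, 4 groups of 3) were fitted with edgeR 4.0.16 in R 4.3.3 (filterByExpr with a minimum count of 10, TMM, quasi-likelihood F-test, 1 fit, Benjamini-Hochberg adjustment over all genes tested). Log2 CPM used a prior count of 2. The alternatives used DESeq2 1.42.0, limma 3.58.1, other scalings, filters, a replicate block, a length trend and each library left out. Counts of members at an unadjusted p, or above 0, were added as measures after seeing that no gene passed the adjusted threshold. Exon lengths came from GENCODE vM1 on NCBIM37 (mm9) for 90.7% of the genes tested. Peaks were compared with the starts in the count table, and promoters were RefSeq entries of GRCm38.p6, used by gene identifier. Protein sequences were not analysed here.

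Members, lists and tests were chosen with earlier results of these data known. Members named were the 2 of smallest p per direction and comparison, the 3 highest and lowest per kb, the stalk genes, Rpsa, 4 paralogs and the 2 farthest from the family median. Other genes were named after their values were seen. Values of some single genes are not reported here.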

Additional observations from a re-analysis of the deposited data

Results flagged for a closer look

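In 2 of the 78 members tested (2.56%), every HFDHFB library was above every HFDLFB library and every LFDHFB library below every LFDLFB library. Of all genes tested 1.32% showed this pattern, so 2 members is a count near the background. Rplp1 had an interaction of 0.97 on the log2 scale (edgeR, adjusted p = 0.386). Its lowest HFDHFB library stood at 947 CPM and its highest HFDLFB library at 936. Rpl34, which shares its locus with another row and had 72 to 119 counts per library, had an interaction of 0.59 (edgeR, adjusted p = 0.523), with 2.44, 2.56 and 2.6 CPM in HFDHFB, 1.61, 2.3 and 2.32 in HFDLFB, 1.76, 1.96 and 1.99 in LFDHFB and 2.39, 2.4 and 2.26 in LFDLFB. Neither passed the test of the difference over all genes.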

How the results depend on the processing

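The member medians kept their direction in all 119 comparisons with another setting. They moved by less than 0.218, the pooled SD of the library medians within groups, but this limit is wide beside some medians. It exceeds the size of the median of −0.19 in HFDLFB against LFDLFB. In LFDHFB against LFDLFB a change from −0.27 to −0.14, without LFDHFB replicate 3, lay within it. Leaving out single libraries gave 0.26 to 0.49 in HFDHFB against HFDLFB, −0.40 to −0.14 in LFDHFB against LFDLFB 0.50 to 0.77 in the interaction, 0.32 to 0.57 in HFDHFB against LFDHFB and −0.28 to −0.12 in HFDLFB against LFDLFB. No member was called in any alternative except DESeq2, which called 1 in HFDHFB against LFDHFB. Over all genes DESeq2 called 80, 0, 35, 114 and 9 genes in the 5 comparisons, in the order of the donor effect under the HFD and the LFD, the interaction and the diets under each donor, where edgeR called 0. Without the low-count filter edgeR, too, called 0 of 19477 genes in each comparison, and the cause of the DESeq2 calls was not tested. The labels do not say whether replicate numbers pair the libraries. Of 18 same-numbered pairs, 6 had a correlation of deviations above 0.1, with a range from −0.59 to 0.45, and HFDHFB 1 was nearest to HFDLFB 3. With 3 libraries per group these correlations cannot decide whether the numbers pair them. With the replicate block the member medians were 0.36, −0.27, 0.64, 0.44 and −0.19, and 6, 0, 33, 35 and 0 members were at an unadjusted p under 0.05, against 21, 3, 52, 45 and 0 without it. Of all genes 6.8%, 2.06%, 8.1%, 5.35% and 3.79% passed with the block, so that the share of members in HFDHFB against HFDLFB was near that of all genes. The length trend gave 12, 1, 25, 20 and 1. An H3K4me1 peak lay within 250 bp of the start in a median of 26.5 members per library and over the start in 7.5, in place of 75 within 1000 bp. For HNF4α the median was 12 over the start in place of 18.5. The interaction of Rpl32l turned to 0.09 with cyclic loess and ranged from −0.29 to 0.08 with single libraries left out, when its value in HFDLFB against LFDLFB ranged from −0.25 to 0.12. That of Rpl30 in HFDHFB against LFDHFB ranged from −0.23 to 0.06.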

Other observations

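The genes whose log2 CPM followed the median of the members most closely over the 12 libraries were looked up after their values were seen. Among 15815 other genes tested, 107 (0.677%) had a Pearson correlation above 0.9 with the median of the 73 well counted members, while the median of all other genes was −0.02. The nearest were Snrpd2, a core protein of spliceosomal particles, at 0.972, Eef1b2 at 0.971, Ring1, a subunit of Polycomb complexes, at 0.966, and Abhd14b at 0.958. Rack1 and Rps3a1 stood at 0.957, Naca, which shields new chains at the ribosome, and Eef1d at 0.956, and Eif3k, a subunit of an initiation factor, at 0.955. Ndufb10, of the respiratory chain, was at 0.954 and Timm17b, of mitochondrial import, at 0.956. The next were Fam195a and Eef1akmt1 at 0.952, Smim6 at 0.951 and Prdx2 at 0.948. These are descriptions over libraries that share depth and sample makeup, given with no test.

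Within the members, Rps27l, Rpl14 and Rps14 followed the family median least closely of the 73, at 0.78, 0.82 and 0.82. The loci of 22 members held 31 rows of snoRNAs on the same strand, which guide the modification of other RNAs, with up to 4 in 1 member. The members lay on 19 chromosomes, with 14 on chromosome 7, the most on any.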
